A study of Mus musculus with 8 samples.

Results

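The transcription factor p53 is known to activate many genes, of which 10 were followed through 8 RNA-seq libraries of mouse liver: Cdkn1a, Ccng1, Btg2, Mdm2, Tnfrsf10b, Eda2r, Phlda3, Bax, Trp53inp1 and Sesn2. They were taken by symbol as direct p53 targets and are 10 of 24062 entries in the count tables. All 10 passed the low-count filter, which left 13767 entries for testing. Every mouse was lean, wild type and C57BL/6, was given 0.1 OD of adenovirus and was killed 1 week later after 6 h without food. The groups held 2 libraries each: mice of 3 months with a short hairpin virus against Dnajb9 (shDnajb9) or its control virus (lacZ1), and mice of 4 months with a hairpin virus against Rictor (shRictor) or its control (lacZ2). Dnajb9 encodes a co-chaperone of the endoplasmic reticulum and Rictor a subunit of the kinase complex mTORC2. What the lacZ viruses carried, and whether the libraries of a group are separate animals, is not stated in the labels, so p-values measure only the spread between these samples. Age, hairpin and control virus change together between the sets and cannot be told apart there.

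The protein p53 is kept scarce by the ubiquitin ligase MDM2 and is stabilised by DNA damage, oncogene activity, ribosome stress and other stresses. It then binds DNA as a tetramer and raises transcription of genes that stop the cell cycle, trigger apoptosis, repair DNA, adjust metabolism and, through Mdm2 itself, switch p53 off again. In liver, p53 activity rises after genotoxic drugs and other injury, and hepatocytes then express Cdkn1a, Mdm2 and Ccng1. Several of these genes also have inputs other than p53: Sesn2 responds to the stress factor ATF4, human TNFRSF10B to the stress factor CHOP, and Btg2 is an immediate early gene.

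The motif p53 binds consists of decamers, and a full site is a pair of them with a short gap (up to 13 bases counted here). RefSeq promoter windows on GRCm38.p6, 250 bases before to 50 bases after an annotated start, were at hand for 8 of the 10 genes, with 2 windows for Cdkn1a. The 4 windows below are shown because they hold a p53 decamer, printed in capitals. The decamer was matched by its usual degenerate consensus, which reads the same on both strands.
Cdkn1a, upstream start, chr17:29090729-29091028, plus strand: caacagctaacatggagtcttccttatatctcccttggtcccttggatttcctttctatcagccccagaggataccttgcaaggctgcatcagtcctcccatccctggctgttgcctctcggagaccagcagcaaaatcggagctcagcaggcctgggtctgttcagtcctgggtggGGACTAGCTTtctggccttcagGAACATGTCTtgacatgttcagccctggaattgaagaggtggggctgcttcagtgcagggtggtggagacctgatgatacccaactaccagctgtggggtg
Mdm2, chr10:117710709-117711008, minus strand: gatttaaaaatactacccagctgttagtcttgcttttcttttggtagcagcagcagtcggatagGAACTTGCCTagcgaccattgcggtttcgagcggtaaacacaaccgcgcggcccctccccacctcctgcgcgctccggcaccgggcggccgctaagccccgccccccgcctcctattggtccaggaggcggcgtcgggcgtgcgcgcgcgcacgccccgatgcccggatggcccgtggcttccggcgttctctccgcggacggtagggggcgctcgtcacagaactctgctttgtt
Ccng1, chr11:40755237-40755536, minus strand: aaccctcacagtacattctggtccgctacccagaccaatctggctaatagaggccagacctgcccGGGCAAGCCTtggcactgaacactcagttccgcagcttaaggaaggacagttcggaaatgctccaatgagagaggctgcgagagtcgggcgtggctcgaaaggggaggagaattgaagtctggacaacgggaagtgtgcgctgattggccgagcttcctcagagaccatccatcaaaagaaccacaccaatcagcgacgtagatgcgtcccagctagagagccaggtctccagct
Bax, chr7:45466849-45467148, minus strand: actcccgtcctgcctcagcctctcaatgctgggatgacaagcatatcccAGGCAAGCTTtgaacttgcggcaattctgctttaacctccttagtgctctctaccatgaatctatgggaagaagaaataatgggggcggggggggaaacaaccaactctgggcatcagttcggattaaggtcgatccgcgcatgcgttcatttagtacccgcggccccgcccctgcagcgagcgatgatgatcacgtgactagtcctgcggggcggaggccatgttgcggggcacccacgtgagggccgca
The Cdkn1a window held 2 decamers, which start 73 and 51 bases before the annotated start. With 12 bases between them they count as 1 full site. The core letters CATG lie 240, 48 and 38 bases before that start. Those at 48 belong to the second decamer, and those at 38 lie just after it, in letters that miss the full consensus. The decamers of Mdm2, Ccng1 and Bax start 186, 185 and 201 bases before their starts. A decamer was found in 4 of the 8 genes with a window, in a background of 8.36% of 32851 mouse promoter windows, and a full site occurs in 0.0731% of these. No decamer lay in the windows of Phlda3, Sesn2, Btg2 and Eda2r or in the window of the downstream Cdkn1a start. A match describes letters only, and sites elsewhere, such as the known ones in the first intron of Mdm2, fall outside these windows.

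Reads assigned to genes numbered 6426164 to 11383532 in the hairpin libraries and 6727294 to 10464225 in the lacZ libraries. Values below are CPM, the counts of a gene relative to its library's total, with the total scaled by TMM, a method that centres most genes on no change. The share of reads with no unique position was 26.7 to 42.0% in hairpin libraries and 22.9 to 24.9% in lacZ libraries, and its part in the results was not tested. The targeted transcripts were lower but not called: Dnajb9 had 21.99 and 20.3 CPM in shDnajb9 livers, against 30.6 and 38.0 CPM in lacZ1 livers (log2 fold change -0.70, SE 0.247, adjusted p = 0.056), and Rictor had 40.1 and 41.9 CPM in shRictor livers, against 52.3 and 65.1 CPM in lacZ2 livers (-0.52, SE 0.281, adjusted p = 0.231). Changes were called at an adjusted p under 0.05 by edgeR's quasi-likelihood test with Benjamini-Hochberg adjustment over all 13767 genes. In bulk liver, fewer cells of a type and less RNA per cell cannot be told apart.

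Most p53 target genes fell with both hairpin viruses. In shDnajb9 livers 8 of 10 fell and 0 rose, where 12.6% of all genes fell, 11.6% rose and 24.2% were called in either direction; Bax and Trp53inp1 were not called. In shRictor livers 8 of 10 fell and 0 rose, where 10.9% of all genes fell, 7.31% rose and 18.2% were called in either direction; Trp53inp1 and Sesn2 were not called. Both shDnajb9 libraries were below both lacZ1 libraries in 9 of 10 genes, as in 35.1% of all genes, and above them in 0, where 32.4% of all genes were. Both shRictor libraries were below both lacZ2 libraries in 10 of 10 genes, as in 31.6% of all genes, and above them in 0, where 28.8% were. The genes that fell with both viruses were Cdkn1a, Ccng1, Btg2, Mdm2, Tnfrsf10b, Eda2r and Phlda3, 7 of 10, where 6.85% of all genes fell with both. The summed level of the 10 genes was 464 and 493 CPM in shDnajb9 livers, against 936 and 1022 CPM in lacZ1 livers. It was 476 and 498 CPM in shRictor livers, against 1080 and 941 CPM in lacZ2 livers. The median log2 fold change of the 10 genes was -1.26 with shDnajb9 and -1.41 with shRictor, where the medians over all genes were -0.046 and -0.0171. The list covers brakes on division, inducers of death and the feedback inhibitor alike, and each role is described in turn.

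**Figure D1:**
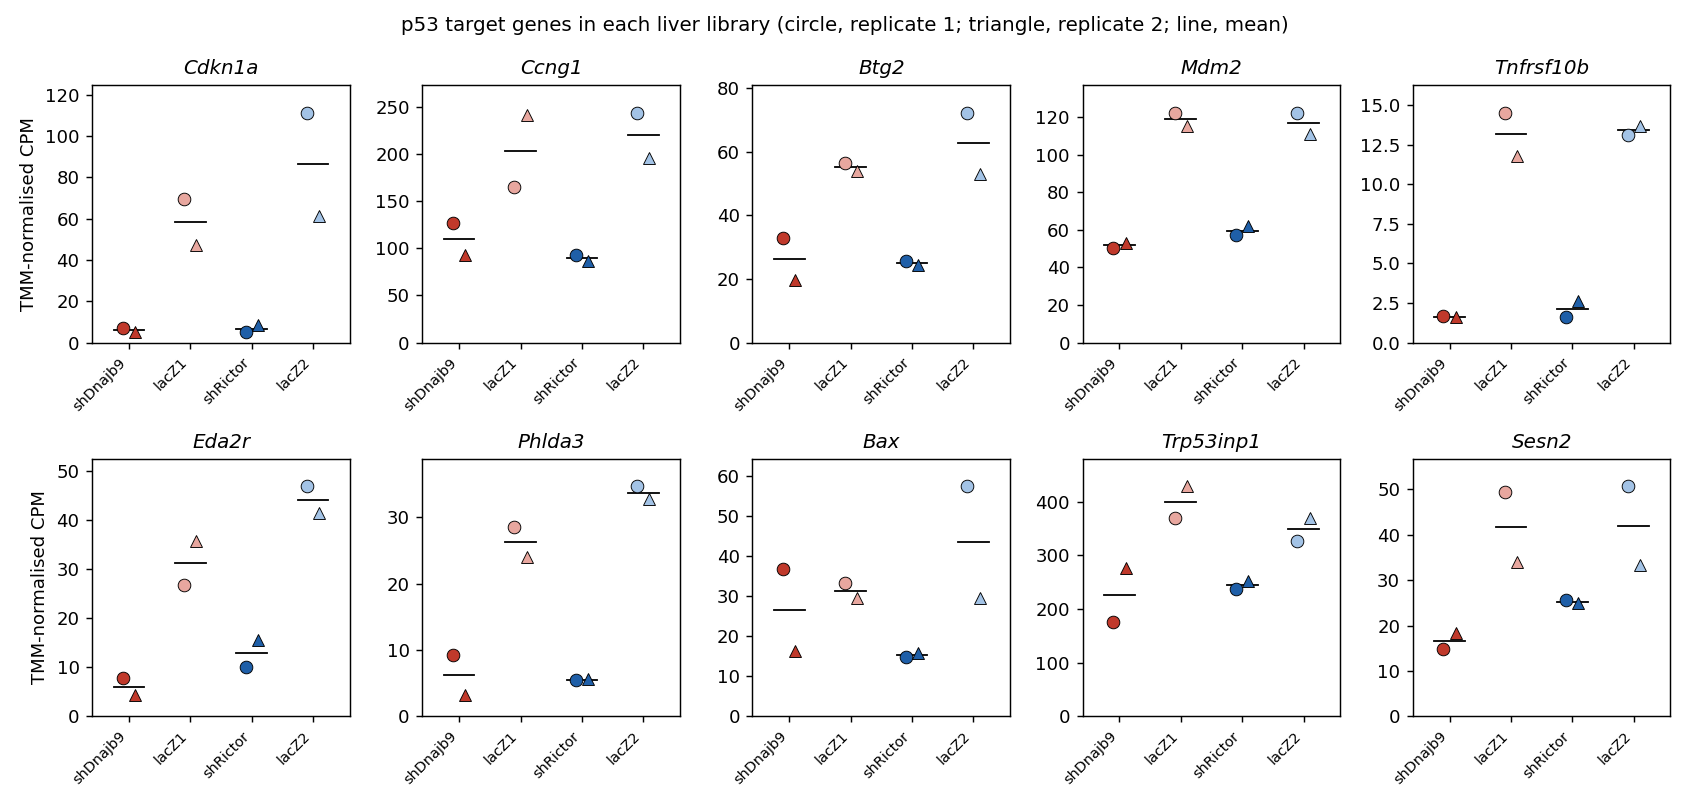
Level of each p53 target gene in TMM-normalised CPM (vertical axes from 0) in the 8 liver libraries, with shDnajb9 left of lacZ1 and shRictor left of lacZ2; circles are replicate 1, triangles replicate 2, lines group means. In 9 of 10 panels all 4 hairpin libraries lie below all 4 lacZ libraries, and Bax is the exception.

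Among the genes that stop division, Cdkn1a (chr17:29090976-29100727, plus strand, GENCODE on GRCm38 as for the genes below) encodes p21, the inhibitor of cyclin-dependent kinases through which p53 arrests the cell cycle. It had 7.33 and 5.36 CPM in shDnajb9 livers, against 69.5 and 47.3 CPM in lacZ1 livers. It had 5.18 and 8.31 CPM in shRictor livers, against 111 and 61.2 CPM in lacZ2 livers. All hairpin libraries were far below all lacZ libraries, and the control libraries themselves spread widely. The fall was 9.37-fold with shDnajb9 (log2 fold change -3.23, SE 0.374, adjusted p = 0.000163) and 12.7-fold with shRictor (-3.66, SE 0.367, adjusted p = 0.000116), the largest of the 10 genes in both comparisons. These levels rest on 35 and 47 reads in shDnajb9 libraries and 44 and 85 reads in shRictor libraries. Part of the gene overlaps an exon of an uncharacterised transcript on the other strand, and the strand setting of the counting is not given in the sources used here.

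Ccng1 (chr11:40748552-40755311, minus strand) encodes cyclin G1, which recruits a phosphatase to MDM2 and so takes part in p53 feedback. It had 127 and 93.3 CPM in shDnajb9 livers, against 165 and 242 CPM in lacZ1 livers. It had 92.8 and 86.5 CPM in shRictor livers, against 244 and 196 CPM in lacZ2 livers. The groups did not overlap, but the gap between the shDnajb9 and lacZ1 libraries was smaller than the spread within lacZ1. Ccng1 fell 1.84-fold with shDnajb9 (-0.88, SE 0.287, adjusted p = 0.0408) and 2.45-fold with shRictor (-1.29, SE 0.289, adjusted p = 0.00828). The shDnajb9 call was lost without any 1 of the 4 compared libraries or of the 2 shRictor libraries, with -0.59 (adjusted p = 0.260) as the value nearest 0, reached without lacZ1 replicate 2. The shRictor call was lost without lacZ2 replicate 1 (adjusted p = 0.0576), shRictor replicate 1 (adjusted p = 0.0598) or shRictor replicate 2 (adjusted p = 0.0733).

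Btg2 (chr1:134075170-134079120, minus strand) encodes an antiproliferative protein that works with the deadenylase complex of messenger RNA decay. It had 32.9 and 19.7 CPM in shDnajb9 livers, against 56.4 and 53.9 CPM in lacZ1 livers. It had 25.5 and 24.2 CPM in shRictor livers, against 72.3 and 52.9 CPM in lacZ2 livers. Every hairpin library was below every lacZ library. Btg2 fell 2.12-fold with shDnajb9 (-1.08, SE 0.274, adjusted p = 0.0141) and 2.51-fold with shRictor (-1.33, SE 0.271, adjusted p = 0.005). With shDnajb9 the gene missed the threshold once shDnajb9 replicate 2 (-0.75, adjusted p = 0.0646) or lacZ1 replicate 1 (-1.08, adjusted p = 0.0742) was left out, and with shRictor once lacZ2 replicate 1 was left out (-1.09, adjusted p = 0.0541).

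Mdm2 (chr10:117688875-117710758, minus strand), the ubiquitin ligase that marks p53 for destruction and is itself induced by it, showed close replicates in every group. It had 50.5 and 53.2 CPM in shDnajb9 livers, against 122 and 115 CPM in lacZ1 livers. It had 57.05 and 62.1 CPM in shRictor livers, against 122 and 111 CPM in lacZ2 livers. Both hairpin groups thus sat near 1 level and both lacZ groups near another, with no overlap. Mdm2 fell 2.29-fold with shDnajb9 (-1.19, SE 0.225, adjusted p = 0.00295) and 1.96-fold with shRictor (-0.97, SE 0.222, adjusted p = 0.00946). The shRictor call was lost without shRictor replicate 1 (adjusted p = 0.0965), shRictor replicate 2 (adjusted p = 0.0573) or lacZ2 replicate 1 (adjusted p = 0.0618), while the fold change stayed between -1.03 and -0.90.

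The receptor genes Tnfrsf10b and Eda2r fell strongly. Tnfrsf10b (chr14:69767472-69784411, plus strand) encodes the receptor for the death ligand TRAIL, which starts apoptosis from the cell surface. It had 1.68 and 1.597 CPM in shDnajb9 livers, against 14.5 and 11.8 CPM in lacZ1 livers. It had 1.65 and 2.64 CPM in shRictor livers, against 13.1 and 13.7 CPM in lacZ2 livers. The 4 lacZ libraries were close to each other and all far above the hairpin libraries. The fall was 8.04-fold with shDnajb9 (-3.01, SE 0.341, adjusted p = 0.000131) and 6.16-fold with shRictor (-2.62, SE 0.309, adjusted p = 0.000193). The hairpin values rest on few reads, 8 and 14 in shDnajb9 libraries and 14 and 27 in shRictor libraries, where lacZ libraries had 99 to 164.

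Eda2r (chrX:97333840-97377216, minus strand) encodes a receptor for ectodysplasin A2. It had 7.75 and 4.335 CPM in shDnajb9 livers, against 26.7 and 35.6 CPM in lacZ1 livers. It had 10.1 and 15.5 CPM in shRictor livers, against 46.8 and 41.4 CPM in lacZ2 livers. The groups were separate in both sets. Eda2r fell 5.33-fold with shDnajb9 (-2.41, SE 0.328, adjusted p = 0.000377) and 3.42-fold with shRictor (-1.78, SE 0.297, adjusted p = 0.00149).

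Phlda3 (chr1:135766119-135769136, plus strand) encodes a small membrane-binding protein that restrains the survival kinase Akt. It had 9.22 and 3.19 CPM in shDnajb9 livers, against 28.5 and 24.0 CPM in lacZ1 livers. It had 5.41 and 5.67 CPM in shRictor livers, against 34.6 and 32.7 CPM in lacZ2 livers. The shRictor libraries agreed closely, while the shDnajb9 libraries differed from each other by more than the lacZ1 libraries did. Phlda3 fell 4.51-fold with shDnajb9 (-2.17, SE 0.37, adjusted p = 0.00175) and 6.06-fold with shRictor (-2.60, SE 0.357, adjusted p = 0.000512). Its shDnajb9 value ranged from -3.03 without shDnajb9 replicate 1 to -1.51 without shDnajb9 replicate 2, called in both.

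Bax (chr7:45461697-45466898, minus strand), the pore-forming protein of mitochondrial apoptosis, was the gene of the 10 whose groups overlapped in the shDnajb9 set. It had 36.9 and 16.3 CPM in shDnajb9 livers, against 33.3 and 29.4 CPM in lacZ1 livers. It had 14.9 and 15.9 CPM in shRictor livers, against 57.4 and 29.4 CPM in lacZ2 livers. The shDnajb9 libraries lay on either side of lacZ1, and in the other set shRictor lay below a lacZ2 pair that differed widely. Bax was not called with shDnajb9 (-0.26, 95% interval -1.07 to 0.54, adjusted p = 0.625) and fell 2.80-fold with shRictor (-1.49, SE 0.375, adjusted p = 0.0163). The shDnajb9 value was 0.23 without shDnajb9 replicate 2 and -0.94 without shDnajb9 replicate 1 and lacZ2 replicate 1 together, when it was called (adjusted p = 0.0441). The shRictor call was lost without lacZ2 replicate 1 (-0.93, adjusted p = 0.177), shRictor replicate 1 (adjusted p = 0.0934) or shRictor replicate 2 (adjusted p = 0.0739). Shared 50-base words make up 8.51% of Bax exons, and 1 exon overlaps an exon of another protein-coding entry, Gm45808, on the same strand, so its counts are uncertain.

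The stress-response genes were Trp53inp1 and Sesn2. Trp53inp1 (chr4:11156431-11174379, plus strand) encodes a nuclear protein that aids p53 and also acts in autophagy. It had 175 and 277 CPM in shDnajb9 livers, against 370.3 and 429 CPM in lacZ1 livers. It had 237 and 252 CPM in shRictor livers, against 328 and 370 CPM in lacZ2 livers. All hairpin libraries were below all lacZ libraries, yet neither difference was called (-0.82, SE 0.308, adjusted p = 0.0684 with shDnajb9; -0.51, SE 0.306, adjusted p = 0.282 with shRictor). With shDnajb9 it was called by DESeq2 (-0.80, adjusted p = 0.0239) and by limma-voom (-0.89, adjusted p = 0.0464). The shDnajb9 value was -1.19 without shDnajb9 replicate 2 and -0.52 without shDnajb9 replicate 1. Trp53inp1 stayed uncalled under 16 of 21 alternatives with shDnajb9 and all 20 with shRictor.

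Sesn2 (chr4:132492032-132510501, minus strand), sestrin 2, is a leucine sensor that restrains mTORC1 and limits oxidative damage. It had 14.9 and 18.4 CPM in shDnajb9 livers, against 49.4 and 33.96 CPM in lacZ1 livers. It had 25.5 and 24.9 CPM in shRictor livers, against 50.7 and 33.2 CPM in lacZ2 livers. The groups did not overlap in either set. Sesn2 fell 2.50-fold with shDnajb9 (-1.32, SE 0.281, adjusted p = 0.00583) and was not called with shRictor (-0.73, SE 0.272, adjusted p = 0.0809). With lacZ1 replicate 1 left out, Sesn2 no longer passed with shDnajb9 (-1.04, adjusted p = 0.0743).

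**Figure D2:**
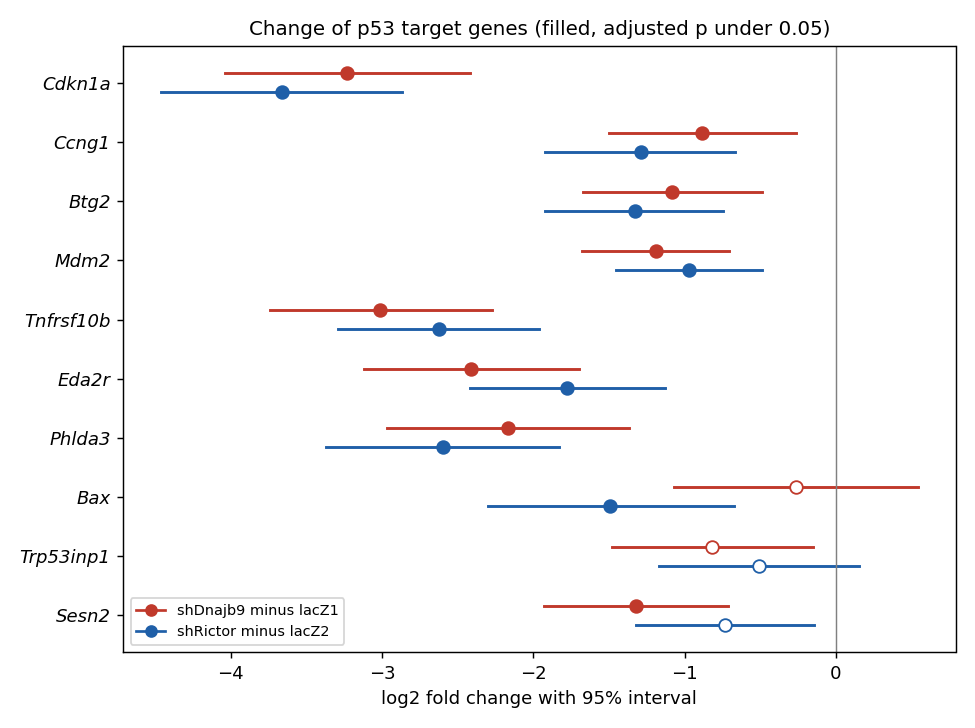
Log2 fold change of each p53 target gene with its 95% interval for shDnajb9 minus lacZ1 (red, upper) and shRictor minus lacZ2 (blue, lower); filled points have an adjusted p under 0.05. All 20 points but those of Bax and Trp53inp1 with shDnajb9 and of Trp53inp1 and Sesn2 with shRictor are filled, and Cdkn1a lies farthest from 0.

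All 4 hairpin libraries lay below all 4 lacZ libraries in 9 of the 10 genes, in a background of 17.9% of all genes. The call of Bax with shRictor and of Sesn2 with shDnajb9 alone does not show that the hairpins differ. The difference between the knockdowns, tested as an interaction, was called for 0 of 10 genes by edgeR, and 0 by DESeq2, with 1 of 10 at an unadjusted p under 0.05. Over all genes 0.00726% were called. The gene with the unadjusted p under 0.05 was Bax, whose difference of log2 fold changes, shRictor set minus shDnajb9 set, was -1.22 (95% interval -2.36 to -0.086, adjusted p = 0.445). The other differences ran from -0.44 for Cdkn1a (95% interval -1.52 to 0.65) to 0.64 for Eda2r (95% interval -0.30 to 1.58), and a difference of 2-fold lay inside 9 of the 10 intervals.

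The control groups were compared as well. Between lacZ2 and lacZ1 livers 0 of 10 genes were called by edgeR and 0 by DESeq2, with 0 at an unadjusted p under 0.05, in a background of 0% of all genes called by edgeR. The largest value was that of Cdkn1a, with 86.3 ± 35.4 CPM in lacZ2 livers and 58.4 ± 15.7 CPM in lacZ1 livers (SD, n = 2 each; log2 fold change 0.56, 95% interval -0.13 to 1.25). Phlda3 and Eda2r were higher in both lacZ2 libraries than in both lacZ1 libraries, as were 11.7% of all genes, and Trp53inp1 was lower in both, as were 9.97%. The lacZ2 mice were 4 months old and the lacZ1 mice 3 months.

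Levels of different genes can be set side by side only per length of transcript, here CPM per kilobase of exon (means of 2 libraries). In shDnajb9 livers the order ran from Trp53inp1 (35) and Ccng1 (31.4) over Bax (16.9), Mdm2 (10.2), Btg2 (9.59), Sesn2 (4.78) and Phlda3 (3.98) to Cdkn1a (1.79), Eda2r (1.03) and Tnfrsf10b (0.300). In lacZ1 livers it ran from Trp53inp1 (61.7) and Ccng1 (57.9) over Mdm2 (23.3), Btg2 (20.1), Bax (19.9), Phlda3 (16.8), Cdkn1a (16.4) and Sesn2 (12.0) to Eda2r (5.29) and Tnfrsf10b (2.41). Trp53inp1 and Ccng1 overlapped in these groups. Other neighbours in the order overlapped too. In shDnajb9 livers these were Bax and Mdm2, Mdm2 and Btg2, Sesn2 and Phlda3, and Phlda3 and Cdkn1a. In lacZ1 livers they were Btg2 and Bax, Phlda3 and Cdkn1a, and Cdkn1a and Sesn2. In shRictor livers Cdkn1a stood at 1.90 CPM per kilobase, between Eda2r (2.18), which it overlapped, and Tnfrsf10b (0.393). In lacZ2 livers it stood at 24.3, between Bax (27.5) and Mdm2 (23), and overlapped both. Trp53inp1 and Ccng1 were the highest and Tnfrsf10b the lowest in all 4 groups, and Cdkn1a was at rank 8 of 10 in shDnajb9 livers and 7 in lacZ1 livers, and at rank 9 in shRictor livers and 4 in lacZ2 livers. With the longest transcript in place of all exons, the order in shDnajb9 livers was the same and Cdkn1a was at rank 8 there and 5 in lacZ1 livers, and at rank 8 in shRictor livers and 3 in lacZ2 livers. Trp53inp1 then stood above Ccng1 in lacZ2 livers (64.2 and 62.6), and they overlapped with either length.

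The regulators upstream of these genes were less uniform. Trp53, the gene of p53 itself, had 18.0 and 23.4 CPM in shDnajb9 livers, against 44.55 and 41.9 CPM in lacZ1 livers, and fell (-1.05, SE 0.235, adjusted p = 0.00745). It had 23.3 and 26.7 CPM in shRictor livers, against 45.4 and 40.0 CPM in lacZ2 livers, and fell (-0.77, SE 0.23, adjusted p = 0.0339). Trp53 no longer passed with shDnajb9 when lacZ1 replicate 1 was left out (adjusted p = 0.0613) or shDnajb9 replicate 1 was (adjusted p = 0.0539), and the shRictor call without any 1 of the 4 lacZ or 2 shRictor libraries (adjusted p = 0.0612 to 0.201). The kinases Chek1 and Chek2, which signal DNA damage to p53, fell by 1.90 and 0.97 on the log2 scale with shDnajb9 and by 2.04 and 1.13 with shRictor. Mdm4, the relative of Mdm2 that masks the p53 activation domain, fell with shDnajb9 (-0.76, adjusted p = 0.0407) and was at -0.45 with shRictor (adjusted p = 0.236). Ppm1d, a phosphatase that p53 induces and that turns the pathway down, was at -0.71 (adjusted p = 0.0632) with shDnajb9 and -0.46 (adjusted p = 0.233) with shRictor. Of 16 regulators listed, 14 were tested: 4 fell and 0 rose with shDnajb9 and 3 fell and 0 rose with shRictor. Thus 28.6% and 21.4% fell, where 12.6% and 10.9% of all genes did. The median log2 fold changes of the regulators were -0.68 and -0.05. With total counts alone 7 fell with shDnajb9, and leaving out 1 library at a time gave 1 to 7 with shDnajb9, lowest without lacZ1 replicate 1 or shDnajb9 replicate 1 and highest without shDnajb9 replicate 2, and 2 without lacZ1 replicate 2 or either shRictor library. With shRictor 1 fell without lacZ2 replicate 1, shRictor replicate 1 or shRictor replicate 2.

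Other known p53 targets fell more often than genes at large but did not fall as a block. Of 45 listed, 43 were tested, and 14 fell, 4 rose and 25 were not called with shDnajb9, with a median of -0.16. Thus 32.6% fell and 9.3% rose, where 12.6% of all genes fell and 11.6% rose. With shRictor 14 fell, 3 rose and 26 were not called, with a median of -0.38. Here 32.6% fell and 6.98% rose, where 10.9% of all genes fell and 7.31% rose. The same 11 genes fell with both viruses, 78.6% of the fallers of each. Over all genes, 54.6% of the genes that fell with shDnajb9 also fell with shRictor, and 62.8% the other way round. Polk, a DNA polymerase that copies past lesions, fell by 1.67 on the log2 scale with shDnajb9, and Sulf2, an extracellular sulfatase, by 2.22. Ak1, adenylate kinase, fell by 3.45 with shRictor and Psrc1, a spindle protein, by 3.68. Igfbp3, a carrier of insulin-like growth factors, went the other way, with 19.1 and 22.7 CPM in shDnajb9 livers, against 2.83 and 5.004 CPM in lacZ1 livers (2.44, SE 0.31, adjusted p = 0.000249). It had 16.7 and 13.1 CPM in shRictor livers, against 2.67 and 2.88 CPM in lacZ2 livers (2.41, SE 0.318, adjusted p = 0.000373). The other risers, named after their values were seen, were Gls2, liver glutaminase, and Dcxr, a xylulose reductase, with both viruses, and Ninj1, a protein of membrane rupture, with shDnajb9. With shDnajb9 the risers numbered 1 without lacZ1 replicate 1, 2 without shDnajb9 replicate 1 and 10 without shDnajb9 replicate 2. With shRictor the fallers numbered 8 without lacZ2 replicate 1, 9 without lacZ2 replicate 2 and 7 without shRictor replicate 1.

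Close relatives of the 10 genes, which share a family but are mostly not p53 targets, were largely not called. Of 21 listed, 19 were tested, and 1 fell and 1 rose with shDnajb9 (median 0.08). With shRictor 2 fell and 1 rose (median -0.10). Thus 5.26% and 10.5% fell, where 12.6% and 10.9% of all genes did. In each comparison 5.26% rose, where 11.6% and 7.31% of all genes did. Cdkn1c, the p57 inhibitor of the p21 family, fell by 1.77 with shDnajb9 and by 2.85 with shRictor. Trp53inp2, the autophagy relative of Trp53inp1, rose by 1.11 and 1.04. Phlda2, a relative of Phlda3, fell by 2.84 with shRictor (adjusted p = 0.0417). That call rests on few reads, 3 and 0 in shRictor libraries and 13 and 12 in lacZ2 libraries. With total counts alone and no TMM, 3 relatives fell and 0 rose with shDnajb9 and 5 fell and 0 rose with shRictor. Leaving out single libraries moved these small counts as well: with shDnajb9 0 rose without either lacZ1 library, 2 without either lacZ2 library and 3 without shDnajb9 replicate 2. With shRictor 0 rose without lacZ2 replicate 1 or shRictor replicate 2, and 4 fell without either shDnajb9 library and 1 without either lacZ1 library, either lacZ2 library or shRictor replicate 2.

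The cell cycle genes that p53 represses through p21 and the DREAM complex were low in the same livers as Cdkn1a. Of 28 such genes 26 fell and 0 rose with shDnajb9, and 27 fell and 0 rose with shRictor. Over all genes 12.6% and 10.9% fell. The medians of the 28 genes were -2.46 and -2.21. Their summed level was 230 and 243 CPM in shDnajb9 livers, against 1143.9 and 1409.8 CPM in lacZ1 livers. It was 185 and 256 CPM in shRictor livers, against 974 and 1102 CPM in lacZ2 livers. Cyclin E1, Ccne1, fell by 2.99 and 3.04, and Prc1, which bundles the central spindle, by 3.12 and 2.87. Most of the p53 targets and of these genes were thus lower in hairpin than in lacZ livers. The cell cycle genes moved in the same direction as Cdkn1a, whose product p21 takes part in their repression. The reason was not tested.

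**Figure D3:**
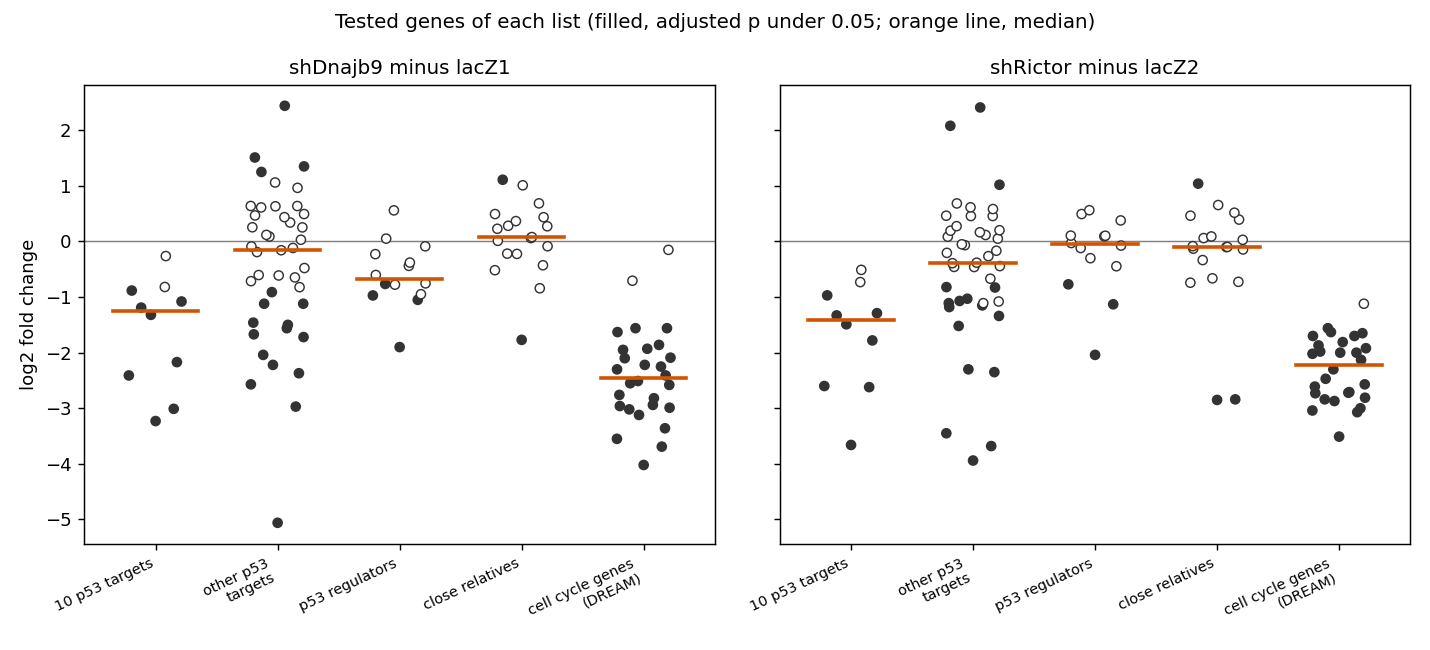
Log2 fold change of every tested gene in 5 gene lists for shDnajb9 minus lacZ1 (left) and shRictor minus lacZ2 (right); filled points have an adjusted p under 0.05 and the orange line is the median. The medians of the 10 p53 targets, -1.26 and -1.41, lie between those of the DREAM genes, -2.46 and -2.21, and those of the close relatives, 0.08 and -0.10.

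Markers of liver cell types also moved with the groups. For scale, 12.6% of all genes fell and 11.6% rose with shDnajb9, and 10.9% fell and 7.31% rose with shRictor. Hepatocyte markers rose in 5 of 9 genes with shDnajb9 and 4 of 9 with shRictor, and fell in 0. The other 4 and 5 were not called. Log2 fold changes of the 9 genes ran from -0.365 to 2.64 with shDnajb9 and from 0.373 to 2.66 with shRictor. Their summed level was 65270 to 84049 CPM in shDnajb9 livers, 39732 to 54015 CPM in lacZ1 livers, 63932 to 69031 CPM in shRictor livers and 21732 to 42366 CPM in lacZ2 livers. Stellate cell and fibroblast markers fell in 5 of 8 genes with shDnajb9 and 2 of 8 with shRictor, and summed to 265 to 321 CPM in shDnajb9 livers, 523 to 605 CPM in lacZ1 livers, 277 to 309 CPM in shRictor livers and 493.5 to 527 CPM in lacZ2 livers. Of 8 neutrophil markers 5 were tested, and 4 fell with shDnajb9 and 1 with shRictor. These calls rest on few reads. The 7 markers in the count tables held 5 and 9 reads in shDnajb9 libraries and 283 and 50 in lacZ1 libraries. They held 15 and 49 reads in shRictor libraries and 122 and 47 in lacZ2 libraries. The 7 in the count tables summed to 1.03 to 1.05 CPM in shDnajb9 livers, 5.96 to 25.1 CPM in lacZ1 livers, 1.76 to 4.79 CPM in shRictor livers and 3.97 to 14.2 CPM in lacZ2 livers, and S100a8 was at 0 in 4 libraries, the 2 shDnajb9 libraries, shRictor replicate 1 and lacZ2 replicate 2. Of 7 Kupffer cell and macrophage markers 2 fell in each comparison, at 955 to 1149 CPM in shDnajb9 livers, 1192 to 1371 CPM in lacZ1 livers, 655 to 843 CPM in shRictor livers and 1136 to 1311 CPM in lacZ2 livers. Their part in the fall of the p53 targets was not tested.

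The change survived leaving out single libraries to different degrees. Cdkn1a, Tnfrsf10b, Eda2r and Phlda3 were called under every one of 21 alternatives with shDnajb9 and 20 with shRictor, with log2 fold changes between -3.67 and -2.95, -3.42 and -2.87, -2.84 and -2 and -3.03 and -1.51 with shDnajb9. With shRictor these 4 genes ran between -4.10 and -3.17, -3.03 and -2.33, -2.19 and -1.5 and -3.01 and -2.56. Without lacZ1 replicate 1 the number of genes that fell with shDnajb9 was 5, and the number that fell with shRictor was 4 without lacZ2 replicate 1 and 5 without either shRictor replicate. Fewer genes were called over the whole table too: 680 of 14120 fell with shDnajb9 without lacZ1 replicate 1, against 1728 of 13767 with all libraries. With shRictor 739 of 14020 fell without lacZ2 replicate 1, 684 of 14184 without shRictor replicate 1 and 788 of 14188 without shRictor replicate 2, against 1502 of 13767 with all libraries.

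**Figure D4:**
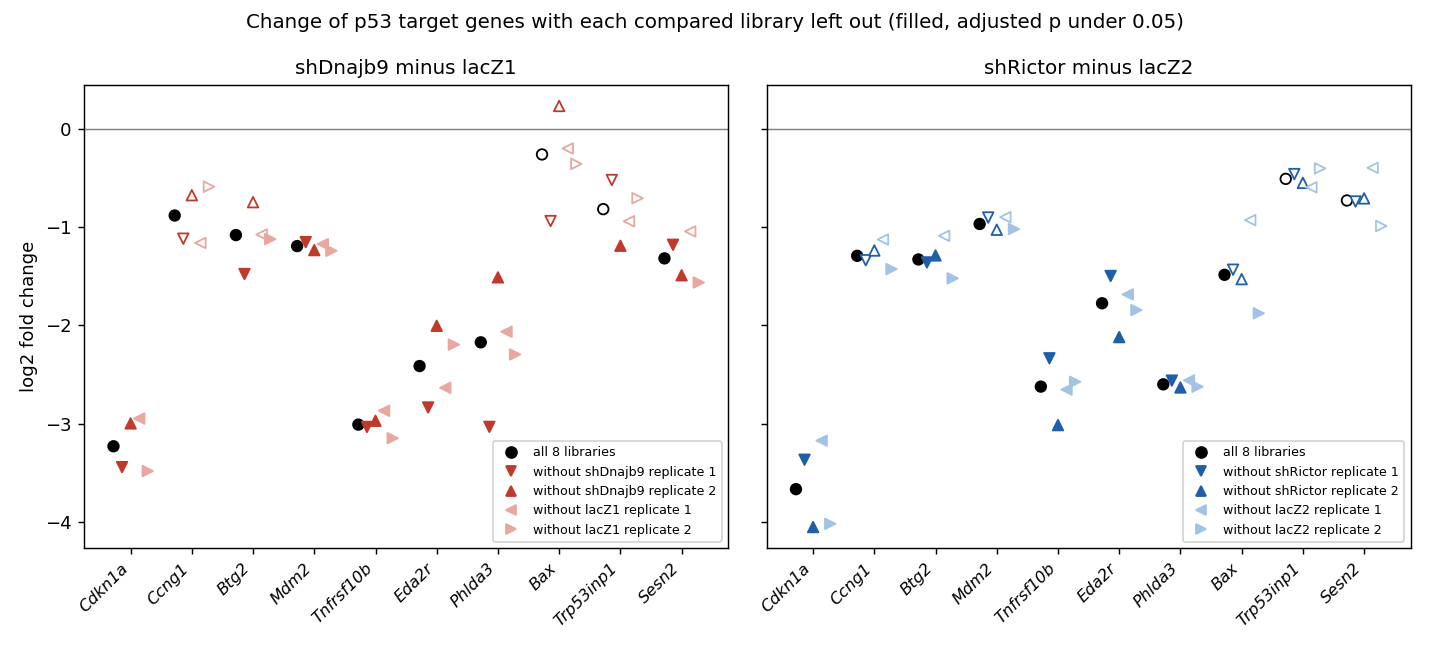
Log2 fold change of each p53 target gene for shDnajb9 minus lacZ1 (left) and shRictor minus lacZ2 (right) with all 8 libraries (black circles) and with each of the 4 compared libraries left out (triangles); filled symbols have an adjusted p under 0.05. Cdkn1a, Tnfrsf10b, Eda2r and Phlda3 stay filled throughout, and Bax with shDnajb9 crosses 0 without shDnajb9 replicate 2.

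Genes with the most similar pattern to each target were sought among 11654 genes of sufficient level by Pearson r of log2 CPM over the 8 libraries. The libraries fall into a hairpin cluster and a lacZ cluster, so these values describe shared contrast and no more. Cdkn1a was closest to Vat1, Pidd1 and Pkmyt1 (r = 0.995, 0.994 and 0.993), and Pidd1 is another known p53 target. Mdm2 was closest to Polk, Lpl and Arhgap11a (r = 0.995, 0.994 and 0.994), and Polk is also a known target. Tnfrsf10b was closest to Aaas, Neu3 and Skp2 (r = 0.998, 0.998 and 0.994). Bax had the least similar neighbours, Nudt13, Clint1 and Fbxo44 (r = 0.974, 0.971 and 0.967). Among the nearest genes of all the targets, named here or not, only Pidd1 and Polk were on the list of other p53 targets. The nearest genes of Ccng1, Phlda3, Trp53inp1, Sesn2, Btg2 and Eda2r, like those of Tnfrsf10b and Bax, included none from that list.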

How the data were processed

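Total RNA of mouse liver was extracted with Trizol, treated with DNase and depleted of ribosomal RNA, per the labels' protocols. The authors deposited a table of raw counts by gene symbol for each library; cutadapt, HTSeq and mm10 are named in the submitters' processing notes, per the labels, and aligner, annotation and strand setting are not given in the sources used here. HTSeq's unassigned classes, 48.4 to 63.7% of each table, stayed out of library sizes. Symbols were matched to GENCODE on GRCm38 (98.45% of entries).

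From the counts, filterByExpr (minimum count 10) kept 13767 genes. edgeR 4.0.16 in R 4.3.3 fitted 1 mean per group over all 8 libraries with TMM scaling, and the quasi-likelihood test was adjusted by Benjamini-Hochberg over all genes. The SE is the log2 fold change over the root of F. Libraries of a group differed by more than counting error (chi-square per degree of freedom 18.2 to 51.98). The script was tested on simulated data. Alternatives were RLE and total-count scaling, 2 filters, non-robust moderation, DESeq2 1.42.0, limma-voom (limma 3.58.1), fewer libraries, a replicate block, adjusted p under 0.1 and a test against 1.5-fold. Other genes named were drawn, per list, from up to 4 called genes with the smallest p in each comparison, and not all of these are named. Trp53, Mdm4 and Ppm1d were added, as were the 3 nearest in pattern to each target. The nearest genes are named for Cdkn1a, Mdm2, Tnfrsf10b and Bax only. A gene this rule selects is not reported here, and Gls2, Dcxr, Ninj1 and S100a8 were named after their values were seen. The target genes, lists and tests were chosen with earlier results of these data known. The lists were p53 regulators, other targets, relatives, DREAM, ATF4 and CHOP, immediate early genes and cell type markers.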

Additional observations from a re-analysis of the deposited data

How the results depend on the processing

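Of 10 p53 targets, 8 fell with each hairpin. Without 1 library at a time the number was 5 to 8 with shDnajb9 and 4 to 8 with shRictor. It was 9 and 9 by total counts alone, where the median of all genes shifted to -0.464 and -0.423 and the split of all genes that rose and fell was 610 and 3349 with shDnajb9 and 437 and 2807 with shRictor, against 1597 and 1728, and 1006 and 1502, with TMM. It was 9 and 8 by DESeq2 and by limma-voom, 7 and 8 in the 4 compared libraries alone, 6 and 6 against 1.5-fold, and 9 and 9 at an adjusted p under 0.1. Bax with shDnajb9 ran from -0.94 to 0.23 when libraries were left out. The differences between knockdowns changed sign in uncalled genes when 1 library was left out: their ranges were -0.823 to 0.0719 for Cdkn1a, -1.08 to 0.436 for Phlda3, -0.577 to 0.153 for Btg2 and -0.00653 to 0.671 for Tnfrsf10b. The fit was also run without shDnajb9 replicate 1 and lacZ2 replicate 1 together. These libraries held the fewest reads assigned to genes, 6426164 and 6727294, and had the lowest and highest TMM factors, 0.743 and 1.279. The differences were then 0.275 for Cdkn1a, 0.476 for Phlda3, 0.0142 for Bax, -0.0700 for Trp53inp1 and 0.392 for Btg2. The cause was not tested.

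The labels give same-numbered libraries nothing in common but the number. Their deviations correlated at -0.30 between shDnajb9 and lacZ1 and -0.0321 between shRictor and lacZ2, and between the other pairs of groups from -0.328 (shRictor and lacZ1) to 0.322 (shRictor and shDnajb9). With the replicate number as a block 8 and 8 target genes fell, and over all genes 1559 rose and 1730 fell with shDnajb9 and 981 and 1489 with shRictor. A crossed pairing of shDnajb9 with lacZ1, chosen after seeing the data, left 7 target genes that fell, and 1406 genes rose and 1586 fell. Genes with few reads, Tnfrsf10b above all, are limited by depth.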

Other observations

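Some of the 10 genes have inputs other than p53: Sesn2 responds to the stress factor ATF4, and Btg2 is an immediate early gene. A list of 13 ATF4 and CHOP targets included the genes of ATF4 and CHOP themselves. Of these 13, 6 fell and 1 rose with shDnajb9 (median -0.51) and 5 fell and 1 rose with shRictor (median -1.15). Thus 46.2% and 38.5% fell, where 12.6% and 10.9% of all genes did. By total counts 8 fell with shRictor. Slc7a11, the cystine transporter, fell by 5.27 and 5.67 on the log2 scale, Psat1, of serine synthesis, by 2.97 and 2.42, and Fgf21, a liver hormone, by 3.26 and 2.75. Atf3 fell by 2.05 with shDnajb9. Of 12 immediate early genes 4 fell and 0 rose with shDnajb9 (median -0.94) and 2 fell and 0 rose with shRictor (median -0.59). These were 33.3% and 16.7%, where 12.6% and 10.9% of all genes fell. Klf6 fell by 1.34 and 1.44 and Jun by 1.18 and 1.10, while Egr1 fell by 2.82 with shDnajb9. With shDnajb9 2 immediate early genes fell without lacZ1 replicate 1 or shDnajb9 replicate 1, and 1 rose without shDnajb9 replicate 2. With shRictor 0 fell without lacZ2 replicate 1, 4 without lacZ2 replicate 2 and 1 without either shRictor library. Of the ATF4 and CHOP targets 0 rose with shDnajb9 without lacZ1 replicate 1 and 2 without shDnajb9 replicate 2.

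Among the remaining cell type markers, 1 of 7 T and NK cell genes fell with shDnajb9 and 3 of 7 with shRictor. Of 4 B cell genes 0 were called, and 1 of 7 endothelial genes rose with shDnajb9. Cholangiocyte genes fell in 2 of 4 with shDnajb9 and 0 with shRictor. Over all genes 12.6% fell and 11.6% rose with shDnajb9, and 10.9% fell and 7.31% rose with shRictor. Cholangiocyte markers summed to 28.3 and 54.6 CPM in shDnajb9 livers, 88.1 and 95.8 CPM in lacZ1 livers, 41.2 and 59.3 CPM in shRictor livers and 59.6 and 111 CPM in lacZ2 livers.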
